A study of Rattus norvegicus with 10 samples.

Results

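HSC-2 is a line of hepatic stellate cells from the Wistar rat, and this comparison asked what differed between passage 42 and passage 43 of 3 clones of that line, S1, S4 and S5, all overexpressing the microRNA rno-miR-146a. The clone arrays with passage 42 in their titles were set against those with passage 43, each clone paired with itself, which took 6 of the 10 arrays of the series (3 against 3). The other 4 arrays were the 2 control lines, untransfected HSC-2 and HSC-2 carrying a scrambled sequence, each at the same 2 passages. All lines were grown in high-glucose DMEM with 10% fetal bovine serum, and total RNA was labelled with biotin for Affymetrix expression arrays. The labels name neither the vector nor its promoter. No array of the comparison lacked the microRNA, so nothing in it measures the effect of miR-146a itself. Each clone contributed 1 array per passage and each line is 1 clone or 1 culture, and the labels do not say whether separate cultures were used. The p-values therefore measure the spread between these arrays, which may be technical. Cell density at harvest, medium age and harvest day are not in the labels, and whatever of these differed between the harvests cannot be told apart from passage.

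Hepatic stellate cells store retinoids in the quiescent liver and, when activated by injury or by growth on plastic, divide, lay down collagen and acquire contractile proteins. In culture their expression depends on whether the cells are dividing, how crowded they are and what serum factors reach them, so that neighbouring passages of one line can differ. The microRNA common to the clones acts in innate immune signalling, where the adaptor kinase Irak1 and the ubiquitin ligase Traf6 are its best known targets. Its mature sequence is shown because the labels name it as overexpressed in every clone, though no probe set here measured it, with the seed (bases 2 to 8) in capitals, from RefSeq on GRCr8, chr10:28350053-28350074, minus strand.
rno-miR-146a-5p: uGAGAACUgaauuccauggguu

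The 6 clone arrays had median intensities of 98.3 to 103.7 units and 14.4% to 14.8% of their values at the floor of 20 units, the lowest value in the table. Vim (22676 to 24794 units over the clone arrays) and Col1a1 (20191 to 22767 units) were among the brightest mesenchymal markers, whereas the stellate genes Gfap (28.1 to 31.5 units) and Desmin, Des (86.4 to 122 units), were low and the retinol-esterifying enzyme Lrat was at the floor on all 6 arrays. Alb stayed between 32.9 and 38.4 units, and the leukocyte marker Ptprc was at the floor on 5 of 6 arrays, as were Cd163, Lyve1 and Epcam on all 6. Not all markers of other cell types were low. The hepatocyte marker Ttr read 170 to 190 units, the leukocyte marker Cd14 548 to 716 units and the endothelial marker Tek 99.8 to 165 units. Of the portal fibroblast, mesothelial and smooth muscle markers, Wt1 read 834 to 1235 units and Fbln2 2910 to 7463 units. The log2 ratio of the 3' to the 5' actin control was 0.55, 0.53 and 0.47 in S1, S4 and S5 at passage 42 and 0.59, 0.55 and 0.64 at passage 43, so it was higher at passage 43 in 3 of 3 clones. The part of this difference in RNA quality in the results was not tested.

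Passage accounted for more of the variation among the clone arrays than clone identity did. Of the sum of squares over the 6 arrays and 27210 probe sets, 44.2% lay between passages, 39.3% between clones and 16.5% in the remainder. On the first principal component, which held 46.8% of the variance, S1, S4 and S5 scored -11.5, -27.1 and -15.4 at passage 42 and 24.0, 9.0 and 21.0 at passage 43. The second component, with 25.4%, set S4 apart from S1 and S5 at both passages. Across probe sets, which are not independent replicates, the log2 changes correlated at 0.594 between S1 and S4, 0.648 between S1 and S5 and 0.541 between S4 and S5, with no array shared by 2 lines. The same correlation was 0.263 to 0.372 between a clone and a control line and 0.135 between the 2 control lines.

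Between passages 42 and 43 nearly all measured genes of mitosis and DNA replication fell in the clones, as did 15 of 33 genes of ribosome production. Among the lists with more rises than falls were lysosome genes (19 of 33), matrix proteases and inhibitors (14 of 30) and growth arrest genes (10 of 26). Of the small matrix proteoglycans, a family grouped after the changes had been seen, 7 of 8 rose. With 1 probe set per gene, 6.26% of all genes rose and 6.32% fell. Of 27210 probe sets tested with limma with clone as a block, 2786 passed an adjusted p of 0.05, which is 10.2% of those tested. The 1360 higher at passage 43 (5% of those tested) named 912 genes, and the 1426 lower (5.24%) named 960 genes, with 3 genes having probe sets in both directions. In 2432 of the 2786 the 3 arrays of one passage lay wholly on one side of the 3 arrays of the other. For reference, 13.4% of all tested probe sets had all passage 43 arrays above and 14.8% all below, and 22.8% and 24% changed in one direction in 3 of 3 clones. The changes were mostly modest, with a median size of 0.43 on the log2 scale, and at least 2-fold in 88 probe sets that rose and 22 that fell. In these bulk samples a lower level can mean fewer cells of a kind or less RNA per cell, and these cannot be told apart.

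The number of calls differed widely between fits. A fit of all 10 arrays, which shares the spread with the control lines, called 199 probe sets higher (0.723%) and 120 lower (0.436%), all 319 of them among the 2786. Counting also the probe sets at the floor on every clone array left 225 calls, and leaving out S1 or S5 left 1647 or 1427. The number called in the fit of 10 arrays is given below for each gene group. With 1 probe set per gene, 6.26% of 13189 genes rose and 6.32% fell, and the median log2 change over all tested probe sets was -0.0021. Every gene list below is read beside those shares, with no test of the list itself.

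The mitotic programme was lower at passage 43 in all 3 clones. Of 36 measured genes of mitosis, 35 fell, none rose (limma, 0 higher at unadjusted p under 0.05), and all 36 had the passage 43 arrays below the passage 42 arrays. The median log2 change was -0.67, at -0.71 for S1, -0.56 for S4 and -0.72 for S5. Ccnb1, the cyclin that activates Cdk1 at mitotic entry, read 1302, 1374 and 1292 units in S1, S4 and S5 (the order used throughout) at passage 42 and 680, 813 and 749 units at passage 43. The clones lay close together at each passage, and the log2 change was -0.83 (SE 0.07, limma adjusted p 0.0053). Ccna2, the cyclin of S phase and G2, read 1505, 1546 and 1351 units and then 774, 872 and 811 units. It was 1.79-fold lower at passage 43 (log2 -0.84, SE 0.07, limma adjusted p 0.00537). Bub1b, a kinase of the spindle checkpoint, went from 489, 551 and 520 units to 304, 304 and 288 units, a log2 change of -0.80 (SE 0.07). Aurka, the kinase of centrosome maturation, went from 630, 627 and 610 units to 385, 354 and 347 units, a log2 change of -0.78 (SE 0.06).

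The proliferation antigen Mki67 read 1620, 1591 and 1528 units at passage 42 and 954, 1161 and 912 units at passage 43 (log2 -0.65, SE 0.08, limma adjusted p 0.0102). The arrays did not overlap, and S4 had the smallest change. The other called members, from Kif23 (-0.83) to Nusap1 (-0.44), covered kinesins, kinetochore proteins, checkpoint kinases and the transcription factor Foxm1 (-0.57). Cenpa, the centromeric histone, was the member not called, with a log2 change of -0.27 (limma adjusted p 0.0789). Without any 1 clone 34 or 35 of the 36 were still called lower, and 8 were called in the fit of 10 arrays. Counting the probe sets at the floor on every clone array left 1.

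The promoters of mitotic genes often carry CCAAT boxes and the cell cycle homology region, whose core letters are TTTGAA or TTCGAA. Because the mitotic genes moved together, the 250 bases before the start are shown for 3 of them, from RefSeq on GRCr8, 5′ to 3′ on the strand of the gene, with CCAAT boxes, which read ATTGG on the other strand, and the letters TTTGAA or TTCGAA in capitals, both searched on both strands. Ccnb1 lies at chr2:33655226-33655475, minus strand. Cdc20, at chr5:137255800-137256049, minus strand, and Cdk1, at chr20:19265043-19265292, plus strand, were picked after the values and sequences had been seen.
Ccnb1: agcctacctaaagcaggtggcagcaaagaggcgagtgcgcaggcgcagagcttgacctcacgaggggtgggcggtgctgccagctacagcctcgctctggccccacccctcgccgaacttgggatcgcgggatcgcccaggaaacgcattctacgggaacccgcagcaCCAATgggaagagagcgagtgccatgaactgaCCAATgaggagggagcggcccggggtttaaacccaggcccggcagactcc
Cdc20: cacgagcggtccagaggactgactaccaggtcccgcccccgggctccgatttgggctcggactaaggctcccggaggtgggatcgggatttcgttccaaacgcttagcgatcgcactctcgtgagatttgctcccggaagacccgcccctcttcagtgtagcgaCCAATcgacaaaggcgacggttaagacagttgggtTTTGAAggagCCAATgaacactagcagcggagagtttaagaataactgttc
Cdk1: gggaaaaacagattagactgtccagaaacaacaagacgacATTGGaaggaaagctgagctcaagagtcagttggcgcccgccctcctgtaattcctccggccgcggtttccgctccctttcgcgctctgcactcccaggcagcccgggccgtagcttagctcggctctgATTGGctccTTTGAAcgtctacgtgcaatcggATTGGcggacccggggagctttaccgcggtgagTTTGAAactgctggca
The Ccnb1 window held 2 CCAAT boxes, that of Cdc20 2 with 1 TTTGAA between them, and that of Cdk1 3 with 2 TTTGAA. Of the 31 mitosis genes with a promoter in the table, 24 (77.4%) held CCAAT, 17 (54.8%) TTTGAA or TTCGAA, and 15 (48.4%) both, against 34.3%, 17.3% and 6.22% of all 27457 promoters. The DNA replication list, which also fell, had 27 genes with a promoter. Of these, 55.6% held CCAAT, 14.8% TTTGAA or TTCGAA, and 11.1% both. Any link of these letters to the fall was not tested. Cdc20, the activator of the anaphase-promoting complex, went from 1211, 1248 and 1287 units to 664, 886 and 715 units, a log2 change of -0.74 (SE 0.09, limma adjusted p 0.00983). Cdk1, the mitotic kinase, went from 2332, 2279 and 2376 units to 1499, 1650 and 1539 units, a log2 change of -0.58 (SE 0.07, limma adjusted p 0.00874).

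Genes of DNA replication and S phase moved the same way. Of 31 measured, 29 fell and none rose (limma, 0 higher at unadjusted p under 0.05), with a median log2 change of -0.54. Orc1, the largest subunit of the origin recognition complex, read 74.9, 72.4 and 73.7 units at passage 42 and 28.8, 35.1 and 38.5 units at passage 43. Its 3 clones were nearly equal at passage 42, and it was 2.17-fold lower at 43 (log2 -1.12, SE 0.10, limma adjusted p 0.00537). Pole, the leading strand polymerase, went from 302, 300 and 282 units to 172, 188 and 172 units. Chaf1a, the histone chaperone of newly copied DNA, went from 319, 330 and 324 units to 184, 187 and 205 units. E2f1, the transcription factor of S phase entry, went from 368, 393 and 394 units to 231, 275 and 246 units (log2 -0.62, SE 0.07, limma adjusted p 0.00764). None of the arrays of these 4 genes overlapped between passages. The helicase subunits Mcm2 to Mcm7 lay between -0.71 (Mcm6) and -0.42 (Mcm2), and the licensing factor Cdt1 at -0.92. Pcna (-0.28, limma adjusted p 0.0534) and the histone mRNA binding protein Slbp (-0.07) were not called. Without 1 clone 21 to 28 were called lower, and 2 in the fit of 10 arrays. With no filter on low values 0 were called (limma, 30 at unadjusted p under 0.05).

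**Figure D1:**
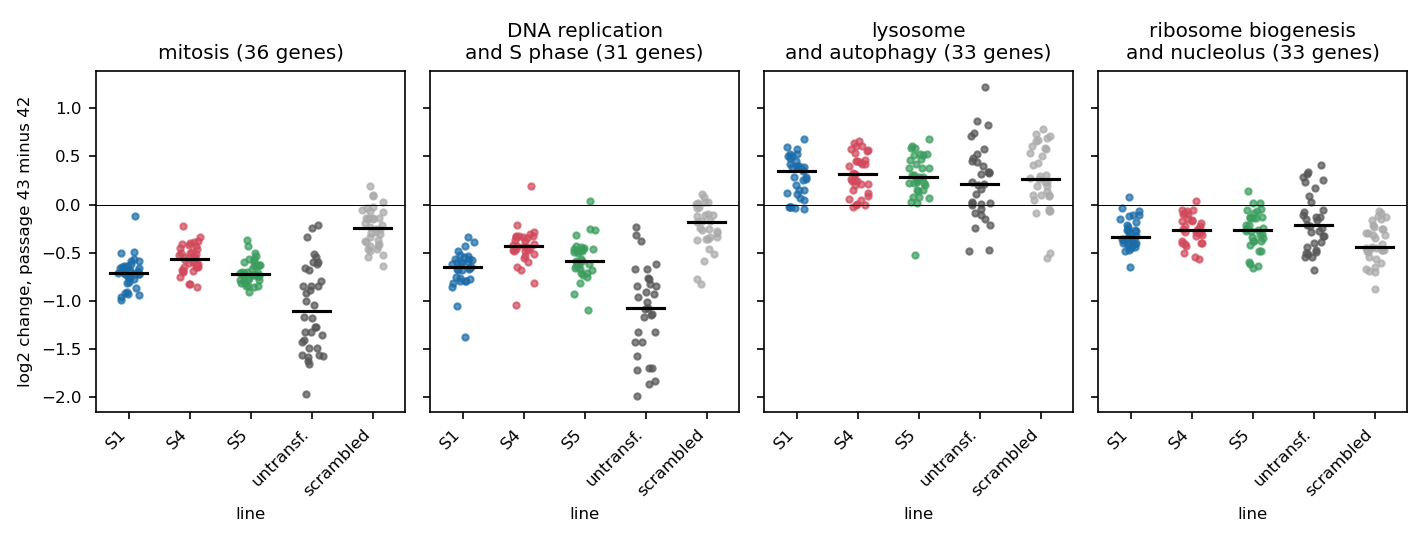
Log2 change from passage 42 to 43 (vertical axis) of each gene of 4 lists in each of the 5 lines, with 1 point per gene and a bar at the median. In every clone all 36 mitosis genes lay below 0, with medians of -0.71, -0.56 and -0.72, while the scrambled line had 4 of 36 above 0 and a median of -0.24.

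The control lines show how far the fall of these lists belonged to the clones. The mitosis median was -1.11 in the untransfected and -0.24 in the scrambled line, so the 3 clones lay between the 2 controls. The DNA replication median was -1.07 in the untransfected and -0.18 in the scrambled line. In the test of the difference between clones and control lines no member of either list was called. At unadjusted p under 0.05 limma gave 1 of 36 and 2 of 31. That test called 0.0182% of all probe sets, and in simulated data it recovered 6% of differences of 1 on the log2 scale. The lack of calls therefore does not show equal change. Ccnb1 read 1310 and 443 units at passages 42 and 43 in the untransfected line and 1634 and 1226 units in the scrambled line, with no replicate of either. Mki67 read 1811 and 610 units in the untransfected line and 1842 and 1961 units in the scrambled line.

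Of 26 measured cell cycle inhibitors and growth arrest genes, 10 rose at passage 43, none fell (limma, 1 lower at unadjusted p under 0.05) and 16 were not called, with 7 of the 26 below 0. The median log2 change was 0.26 in the clones, -0.11 in the untransfected line, where 15 of 26 were below 0, and 0.20 in the scrambled line. Pik3ip1, an inhibitor of phosphoinositide 3-kinase, read 466, 480 and 491 units at passage 42 and 933, 1017 and 908 units at passage 43. The arrays were far apart, and the level was 1.99-fold higher (log2 0.99, SE 0.07, limma adjusted p 0.00475). Ypel3, a growth suppressing protein, went from 172, 234 and 220 units to 312, 359 and 347 units. Pdcd4, an inhibitor of translation initiation, went from 225, 209 and 236 units to 355, 336 and 406 units. Tob1, an antiproliferative protein of the deadenylation machinery, went from 1578, 1439 and 1409 units to 2175, 2053 and 1967 units. All 4 genes had the arrays of the passages apart. In the untransfected line Pdcd4 and Tob1 changed by -0.59 each. The other called members were Rb1 (0.57), Foxo3 (0.50), Btg1 (0.48), Klf4 (0.41), Cdkn1a (0.35) and Rbl2 (0.30).

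Cdkn1a, the kinase inhibitor p21, read 1265, 996 and 1209 units at passage 42 and 1465, 1347 and 1594 units at passage 43 (limma adjusted p 0.0376), and its call was lost without S4 (0.1) or without S5 (0.114). Plagl1, a zinc finger protein with antiproliferative activity, read 1184, 1736 and 1264 units and then 2228, 2418 and 1797 units (log2 0.63, SE 0.10, limma adjusted p 0.0186). Ccnd1, the cyclin of G1, had overlapping arrays (4234, 3655 and 3966 units, then 3373, 3741 and 3390 units) and was not called (log2 -0.17, limma adjusted p 0.269). Myc, the growth-promoting transcription factor, read 1005, 842 and 1185 units and then 723, 794 and 750 units (log2 -0.41, SE 0.12, limma adjusted p 0.0831). Without S4 the Myc change was -0.57. In the fit of 10 arrays 2 of the 26 growth arrest genes were called, and without 1 clone 6 to 9 were. Of 24 targets of p53, 2 rose (Cdkn1a and Fas) and 1 fell (Plk2, a Polo-like kinase), with a median of 0.04 and 1 call in the fit of 10 arrays. Plk2 went from 785, 841 and 660 units to 426, 532 and 346 units, a log2 change of -0.83 (SE 0.08, limma adjusted p 0.00594). Fas, the death receptor, rose by 0.32 (limma adjusted p 0.0408) and lost its call without any 1 of the clones (0.0816 to 0.11).

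The small leucine-rich proteoglycans, secreted proteins that bind collagen fibrils and growth factors, gave some of the largest rises. This family was put together after the changes had been seen, so its count is a description. Of 8 measured members, 7 rose and none fell (limma, 0 lower at unadjusted p under 0.05), with a median log2 change of 0.62. Dcn, decorin (NCBI gene 29139), read 337, 99.7 and 372 units at passage 42 and 1385, 483 and 1289 units at passage 43. S4 started lower than the others and stayed lower, but every passage 43 array exceeded every passage 42 array, and the change was 4.10-fold (log2 2.04, SE 0.10, limma adjusted p 0.00295). Lum, lumican, read 1804, 401 and 1733 units and then 4888, 2332 and 4725 units. Here too S4 was lowest at both passages and had the largest change, 2.54 against 1.44 and 1.45 on the log2 scale, with a mean of 1.81 (SE 0.22, limma adjusted p 0.00913). Fmod, fibromodulin, read 104, 137 and 104 units and then 500, 309 and 536 units. S4 was highest at passage 42 and lowest at passage 43, and the mean log2 change was 1.94 (SE 0.23, limma adjusted p 0.00862).

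Smaller rises were measured in the other members of that family. Omd, osteomodulin, went from 50.7, 48.5 and 53.7 units to 109, 61.4 and 81.6 units (log2 0.68), and Prelp from 48.0, 42.4 and 41.5 units to 68.1, 60.7 and 66.0 units (log2 0.56). Ogn, osteoglycin, went from 2057, 2585 and 2128 units to 3124, 3053 and 3231 units (log2 0.48), and Bgn, biglycan, from 8894, 8344 and 9105 units to 11458, 11110 and 10970 units (log2 0.35, limma adjusted p 0.0284). These 4 genes had the arrays apart. Calls were lost for Bgn without any 1 clone (0.0569 to 0.0987), for Ogn without S1 (0.0686) or S5 (0.0865), and for Omd without S5 (0.0669). Podn, podocan, read 148, 154 and 140 units and then 142, 168 and 154 units and was not called (limma adjusted p 0.603). In the fit of 10 arrays 3 of the 8 were called, and with 1 clone left out 4 to 6. The proteoglycan medians of the control lines were 0.46 in the untransfected and 0.31 in the scrambled line, and Dcn alone changed by 3.17 and 0.92 there.

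**Figure D2:**
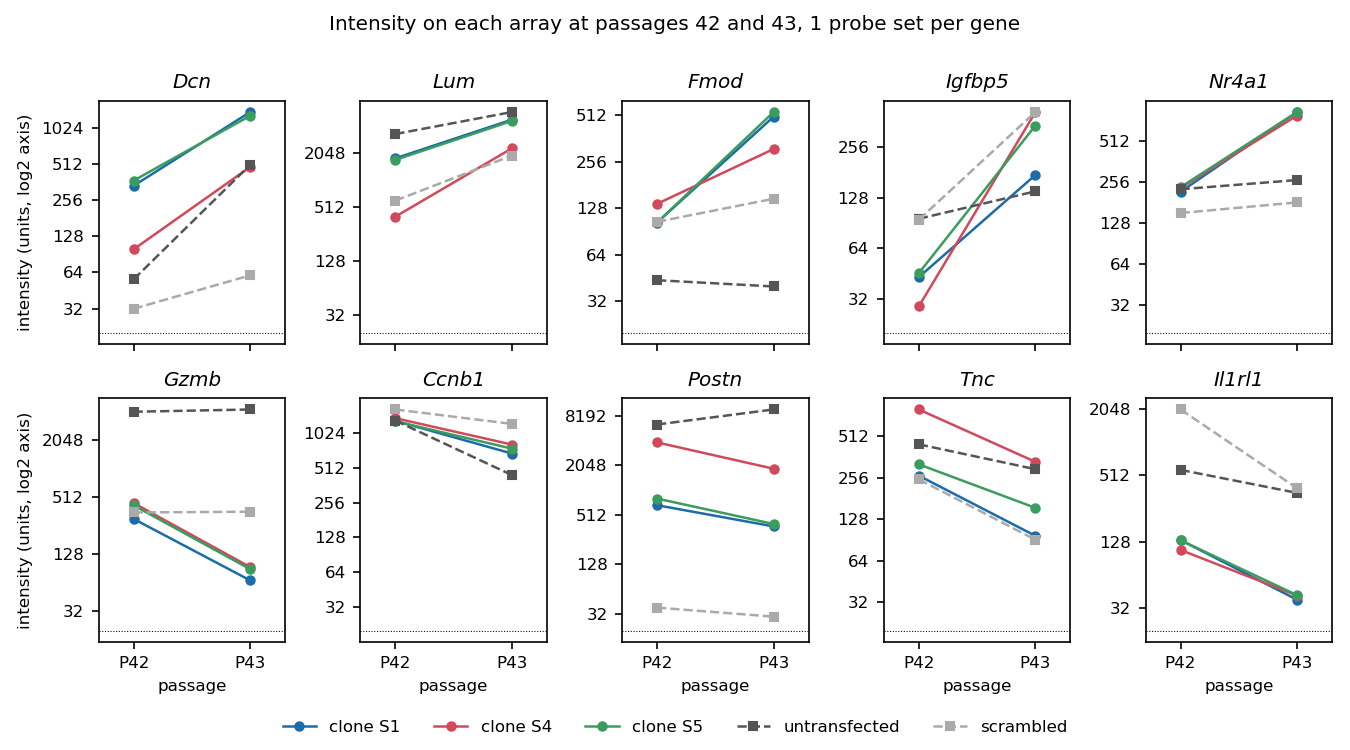
Intensity at passages 42 and 43 (log2 axis, each panel with its own range) of 10 genes, with a line for each of the 3 clones and, dashed, the 2 control lines; the dotted line is the floor of 20 units. In the clones Nr4a1 went from 217 to 234 units up to 783 to 831 units and Gzmb from 302 to 445 units down to 67.8 to 93.7 units, while the control lines changed by 0.22 and 0.26 on the log2 scale for Nr4a1 and by 0.08 and 0.03 for Gzmb.

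The wider matrix list was mixed. Of 58 measured collagens and matrix genes, 12 rose and 10 fell, with a median log2 change of 0.05. Col1a1, the main fibrillar collagen of scar, had overlapping arrays (21941, 20191 and 21796 units, then 22501, 22766 and 20792 units) and a change of 0.05 (limma adjusted p 0.737). Among those that fell was Tnc, tenascin C, a glycoprotein of wound matrix, which read 266, 803 and 321 units at passage 42 and 97.4, 335 and 155 units at passage 43. Because S4 was highest at both passages the arrays overlapped, but each clone fell, with log2 changes of -1.45, -1.26 and -1.05 (mean -1.25, SE 0.09, limma adjusted p 0.00475). Fbln2, fibulin 2, went from 5727, 7463 and 5778 units to 2910, 4325 and 3069 units (log2 -0.89, SE 0.07). Postn, periostin, showed the widest spread between clones, with 669, 3883 and 805 units at passage 42 and 369, 1857 and 395 units at passage 43. S4 held over 4 times the level of S1 and S5, and still all 3 fell by similar steps (-0.86, -1.06 and -1.03, limma adjusted p 0.00475).

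The other called members that fell were Vcan (-0.98), Loxl2 (-0.80), Col5a3 (-0.61), Col12a1 (-0.48), Fbln5 (-0.36), Lama4 (-0.36) and Fbln1 (-0.29). Those that rose beside the proteoglycans were Col14a1 (1.09), Mgp (0.89), Lama5 (0.58), Col4a5 (0.40), Lamb1 (0.34) and Lox (0.28). In the fit of 10 arrays 3 of the list were called higher and 4 lower.

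Matrix proteases and their inhibitors tended upward. Of 30 measured, 14 rose and 1 fell, with a median log2 change of 0.28 and medians of 0.26, 0.27 and 0.32 in the clones. Serpine2, protease nexin 1, an inhibitor of thrombin and plasminogen activators, read 2014, 1434 and 2289 units at passage 42 and 5488, 5501 and 5597 units at passage 43. The clones differed at passage 42 and met at passage 43, and the level was 2.95-fold higher (log2 1.56, SE 0.13, limma adjusted p 0.0053). Adamts1, a protease of aggrecan and versican, went from 1782, 1786 and 1747 units to 4649, 3261 and 3802 units (log2 1.12, SE 0.11, limma adjusted p 0.00594). Mmp14, the membrane-bound activator of Mmp2, went from 6484, 5820 and 6018 units to 8829, 8471 and 8951 units (log2 0.52, SE 0.06), and its partner Mmp2, gelatinase A, rose by 0.89. The member that fell was Serpinb2, the intracellular plasminogen activator inhibitor, from 170, 213 and 218 units to 53.2, 104 and 73.7 units (log2 -1.42, SE 0.13, limma adjusted p 0.00575). The other called members were Mmp11 (0.59), Ctsk (0.53), Adam15 (0.47), Ctsl (0.45), Adam10 (0.40), Timp3 (0.39), Adamts9 (0.39), Mmp23 (0.39), Ctsb (0.32) and Timp2 (0.28). Without 1 clone 9 to 11 were called higher, and 3 in the fit of 10 arrays. The list medians were 0.26 in the untransfected and 0.14 in the scrambled line.

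Some contractile genes of the activated stellate cell fell. Of 26 measured contractile and activation genes, 2 rose and 6 fell, with a median log2 change of -0.06, and the smooth muscle actin gene Acta2 itself had overlapping arrays (4948, 6834 and 5275 units, then 5412, 5711 and 4682 units). Its log2 change was -0.10 (SE 0.09, limma adjusted p 0.543). Actg2, the enteric smooth muscle actin, read 353, 839 and 461 units at passage 42 and 193, 312 and 182 units at passage 43 (log2 -1.21, SE 0.12, limma adjusted p 0.00598). Cnn1, calponin, an actin-binding protein, went from 179, 448 and 233 units to 109, 162 and 136 units (log2 -0.99, SE 0.15, limma adjusted p 0.0166). In both genes S4 was highest at passage 42 and lost most. Loxl2, a collagen cross-linking oxidase, went from 2305, 2572 and 2174 units to 1006, 1714 and 1426 units, a log2 change of -0.80 (SE 0.13, limma adjusted p 0.0201). Myl9 (-0.42) and Tagln (-0.36) were the other contractile members that fell, and Des (0.33) and Lox (0.28) rose. With 1 clone left out 4 or 5 were called lower and neither rise was called (Des at limma adjusted p of 0.0605 to 0.12), and 1 member was called in the fit of 10 arrays.

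Targets of Yap and Srf, factors that follow cell spreading and actin tension, overlapped with that list. Of 32 measured, 9 fell and 1 rose, with a median log2 change of -0.14 in the clones, 0.09 in the untransfected and -0.25 in the scrambled line. Ankrd1, an ankyrin repeat protein and a much used Yap readout, went from 1111, 1822 and 1237 units to 750, 1058 and 701 units (log2 -0.72, SE 0.08, limma adjusted p 0.0069). Nuak2, a kinase of actin organisation, went from 374, 492 and 388 units to 199, 338 and 203 units (log2 -0.80, SE 0.10, limma adjusted p 0.0089). Fhl2, a focal adhesion cofactor, rose by 0.60, and Tgfb2 (-0.48), Birc5 (-0.46) and Crim1 (-0.33) fell. Without 1 clone 5 to 8 were called lower, and 2 in the fit of 10 arrays.

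Of 31 immediate early genes measured, 6 rose and none fell (limma, 5 lower at unadjusted p under 0.05), with a median of 0.12, and 4 of the 6 were transcription factors of the Nr4a and Egr families. Nr4a1, an orphan nuclear receptor induced by growth factors and cyclic AMP, read 217, 231 and 234 units at passage 42 and 831, 783 and 831 units at passage 43. The 3 clones nearly coincided at each passage, and the level was 3.59-fold higher (log2 1.84, SE 0.07, limma adjusted p 0.00203). Nr4a3, its close relative, read 67.8, 50.1 and 87.6 units and then 513, 140 and 290 units. The groups did not overlap, though S1 changed far more than S4, and the mean log2 change was 2.04 (SE 0.26, limma adjusted p 0.0105). Egr2, a zinc finger factor, went from 40.4, 72.7 and 52.5 units to 178, 192 and 201 units (log2 1.82, SE 0.14, limma adjusted p 0.00491). Egr1, a serum response gene, went from 2198, 3419 and 2912 units to 3941, 6004 and 4920 units (log2 0.80, SE 0.06, limma adjusted p 0.00491).

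Of the 7 members of these 2 families, a group drawn after the changes had been seen, the other 3 were not called. Nr4a2 read 155, 145 and 159 units and then 228, 158 and 167 units (limma adjusted p 0.205). Egr3 (log2 0.08) and Egr4 (log2 0.09) had overlapping arrays. In the scrambled line Egr2 changed by 1.12, Egr1 by 0.91 and Nr4a3 by 0.22, and in the untransfected line by 0.33, -0.25 and -0.64. Of the 7 members only Nr4a1 was called in the test of the difference between clones and control lines (limma, 3 at unadjusted p under 0.05). Junb (0.37) and Dusp6 (0.33), a phosphatase of Erk, were the other immediate early genes that rose. Without 1 clone all 4 called Nr4a and Egr genes were still called, and 3 of the 4 in the fit of 10 arrays. Of the whole immediate early list 4 or 5 rose and 1 or 2 fell with a clone left out.

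Promoters induced by cyclic AMP often hold the letters TGACG, the core of the site of the factor Creb. The 250 bases before the start of Nr4a1 are shown because it was among the genes whose passage change differed between clones and control lines, from RefSeq on GRCr8, chr7:134259888-134260137, plus strand, with TGACG, which reads CGTCA on the other strand, in capitals.
Nr4a1: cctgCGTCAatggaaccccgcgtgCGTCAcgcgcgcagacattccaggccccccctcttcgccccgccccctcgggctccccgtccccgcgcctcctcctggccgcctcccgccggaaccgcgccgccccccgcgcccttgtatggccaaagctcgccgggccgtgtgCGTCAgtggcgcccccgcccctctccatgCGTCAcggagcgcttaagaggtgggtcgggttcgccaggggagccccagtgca
The window held 4 copies, all as CGTCA. All 5 Nr4a and Egr genes with a promoter in the table held at least 1 copy, against 19.0% of all promoters, and these include members that were not called. Lists that fell also held TGACG more often than all promoters, with 48.1% of the DNA replication, 44.8% of the ribosome biogenesis and 29.0% of the mitosis promoters, and the lysosome list with 30.8%.

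Among cytokines and adhesion molecules the changes went both ways. Of 44 measured inflammatory and NF-kB response genes, 7 rose and 3 fell, with a median of 0.06. Vcam1, an adhesion molecule for leukocytes, read 218, 234 and 237 units at passage 42 and 453, 804 and 676 units at passage 43. The clones started together and spread out at passage 43, and the level was 2.73-fold higher (log2 1.45, SE 0.14, limma adjusted p 0.00598). Cxcl12, a chemokine of stromal cells, read 1988, 599 and 1414 units and then 3466, 1577 and 2786 units. The arrays overlapped because S4 was lowest at both passages, and the log2 change was 1.06 (SE 0.12, limma adjusted p 0.00804). Cxcl16, a membrane-bound chemokine, went from 416, 485 and 401 units to 622, 733 and 618 units (log2 0.60, SE 0.06). The other members that rose were Icam1 (0.44), Ccl20 (0.43), Il6st (0.36) and Relb (0.31). Ccl2, the monocyte chemokine, was near level (86.8, 61.6 and 64.7 units, then 80.1, 78.2 and 53.6 units; limma adjusted p 0.959).

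The 3 members that fell included the interleukin 33 pair. Il1rl1, the receptor of interleukin 33, read 132, 108 and 132 units at passage 42 and 38.0, 41.5 and 41.8 units at passage 43, which is 3.05-fold lower (log2 -1.61, SE 0.09, limma adjusted p 0.00391). One of its 2 probe sets was called. Il33, the alarmin itself, read 197, 342 and 168 units and then 77.1, 204 and 62.9 units. S4 was highest at both passages so the arrays overlapped, and each clone fell (log2 -1.17, SE 0.14, limma adjusted p 0.00848). Il6, a cytokine of the acute phase response, read 70.3, 40.3 and 68.8 units and then 20.3, 24.4 and 34.7 units, close to the floor. Its log2 change was -1.17 (SE 0.20, limma adjusted p 0.0212), and no clone array was at the floor itself. Il1rl1 also fell in the untransfected (-0.69) and scrambled (-2.37) lines, and its difference, clones minus control lines, was -0.08 (SE 0.46) and not called. Il33 (0.42 and 0.21) and Il6 (0.02 and 0.07) had positive changes in the untransfected and scrambled lines. The differences, clones minus control lines, were -1.49 (SE 0.23) for Il33 and -1.21 (SE 0.31) for Il6. Neither difference was called (limma adjusted p 0.277 and 0.452). Without 1 clone 4 or 5 of the 44 were called higher and 3 or 4 lower, and in the fit of 10 arrays 3 higher.

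Of 30 measured interferon-stimulated and antigen processing genes, 6 rose, none fell (limma, 2 lower at unadjusted p under 0.05) and 24 were not called, with a median log2 change of 0.09. In S1 alone 15 were above and 14 below 0. Gbp2, a guanylate-binding protein, went from 161, 155 and 144 units to 230, 223 and 195 units (log2 0.49, SE 0.06, limma adjusted p 0.00989). Tapbp, tapasin, which loads peptides on class I molecules, went from 274, 241 and 278 units to 332, 341 and 373 units (log2 0.40, limma adjusted p 0.0248). The other called members were RT1-S3 (0.47), Ifi27 (0.37), Irf7 (0.34) and the tetherin gene Bst2 (0.32). Without S4 or without S5 the call was lost for Tapbp (0.066 and 0.0733), Ifi27 (0.0791 and 0.0771) and Bst2 (0.0649 and 0.131), and without 1 clone 1 to 5 of the list were called (1 without S4 and 1 without S5). In the fit of 10 arrays 1 was called. The list median was 0.73 in the scrambled line and -0.01 in the untransfected line, both outside the 0.00 to 0.22 of the clones.

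Secreted growth regulators included the largest called change. Igfbp5 (NCBI gene 25285), which binds insulin-like growth factors, read 43.1, 28.9 and 45.5 units at passage 42 and 175, 414 and 345 units at passage 43. S4 went from the lowest to the highest clone, the log2 changes were 2.02, 3.84 and 2.92, and the mean was 2.93 (SE 0.31, limma adjusted p 0.00716), with 3 of its 5 probe sets called. Igfbp5 changed by 0.54 in the untransfected and 2.13 in the scrambled line. The difference, clones minus control lines, was 1.59 (SE 0.63) and was not called (limma adjusted p 0.584). Of the 7 measured IGF binding proteins, grouped after the changes had been seen, Igfbp2 also rose (149, 148 and 142 units, then 295, 170 and 250 units; limma adjusted p 0.0469). Its call was lost without S1 (0.0672) or S5 (0.115). Igfbp4 was not called (log2 0.34, limma adjusted p 0.0568), nor were Igfbp1, Igfbp3, Igfbp6 and Igfbp7. Of the 7, 1 was called in the fit of 10 arrays.

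Of 50 measured growth factors and receptors, 7 rose and 1 fell. Fgf7, keratinocyte growth factor, went from 300, 166 and 298 units to 720, 442 and 612 units (log2 1.24, SE 0.09, limma adjusted p 0.00475). Fgf18, another fibroblast growth factor, went from 101, 118 and 123 units to 268, 200 and 240 units (log2 1.05, SE 0.13, limma adjusted p 0.00911). Both had the arrays apart, and both changed by opposite signs in the control lines, 1.38 and 1.17 in the untransfected and -0.39 and -0.83 in the scrambled line. Vegfa, the angiogenic factor, went from 1802, 1882 and 1722 units to 2572, 2629 and 2369 units (log2 0.48, SE 0.06). Pdgfc (0.50) and Vegfc (0.38) rose, and Tgfa, a ligand of the epidermal growth factor receptor, fell by 0.44. Without 1 clone 5 to 9 were called higher, and in the fit of 10 arrays 1 was.

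Genes of TGF-beta and BMP signalling split between the directions, 8 up and 7 down of 45, with a median of 0.01. The secreted BMP antagonists Grem1 (62.0, 43.3 and 49.9 units, then 117, 83.5 and 78.6 units) and Chrd, chordin (192, 205 and 175 units, then 342, 309 and 314 units), rose by 0.84 and 0.75 on the log2 scale. Ltbp2, a latent TGF-beta binding protein, went from 2117, 2485 and 2364 units to 2919, 3859 and 3272 units (log2 0.52, SE 0.07). Tgfbi, a matrix protein induced by TGF-beta, went from 88.7, 145 and 99.0 units to 50.1, 99.2 and 51.4 units. The Tgfbi arrays overlapped through S4, and it fell in each clone (log2 -0.77, SE 0.09, limma adjusted p 0.00848). Smad9 (0.66), Inhbb (0.52), Bmp4 (0.48), Id4 (0.42) and Id3 (0.35) also rose, and Bmp2 (-0.49), Bambi (-0.49), Tgfb2 (-0.48), Fst (-0.43), Inhba (-0.40) and Fstl3 (-0.37) also fell. The counts depended on single clones, with 5 to 9 higher and 1 to 6 lower when 1 was left out (1 without S5), and 1 call in the fit of 10 arrays.

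Of 43 genes of endoplasmic reticulum and amino acid stress, 11 fell, 1 rose and 31 were not called, with a median log2 change of -0.04. The members that fell were mostly enzymes and transporters of amino acids and not chaperones. Psph, the last enzyme of serine synthesis, read 1101, 959 and 1158 units at passage 42 and 650, 554 and 663 units at passage 43 (log2 -0.79, SE 0.06, limma adjusted p 0.00491). Slc7a11, the cystine transporter, went from 338, 343 and 389 units to 210, 200 and 239 units (log2 -0.72, SE 0.06, limma adjusted p 0.00537). Slc7a5, the transporter of large neutral amino acids, went from 972, 1002 and 987 units to 639, 638 and 586 units (log2 -0.67, SE 0.07, limma adjusted p 0.00598). All 3 had the arrays apart. The other members that fell were Cth (-0.44), Psat1 (-0.44), Slc1a5 (-0.43), Shmt2 (-0.41), Phgdh (-0.38), Slc7a1 (-0.34), Mthfd2 (-0.31) and Ddit3 (-0.30). Slc38a2, a glutamine transporter, went the other way, from 4756, 4791 and 4615 units to 7783, 7243 and 7080 units (log2 0.64, SE 0.06, limma adjusted p 0.00614). Without 1 clone 5 to 8 were called lower, and 2 in the fit of 10 arrays.

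Of 33 measured genes of ribosome biogenesis and the nucleolus, 15 fell and none rose (limma, 0 higher at unadjusted p under 0.05), 28 had the passage 43 arrays below the passage 42 arrays, and the median log2 change was -0.29. Nhp2, a core protein of H/ACA ribonucleoproteins, read 1585, 1579 and 1698 units and then 1007, 1068 and 1087 units (log2 -0.62, SE 0.06, limma adjusted p 0.00647). Heatr1 and Utp20, components of the small subunit processome, fell by 0.50 and 0.48 on the log2 scale. Polr1b, the second largest subunit of RNA polymerase I, went from 222, 230 and 223 units to 166, 170 and 166 units (log2 -0.43, SE 0.06, limma adjusted p 0.0134). The medians were -0.22 in the untransfected and -0.44 in the scrambled line. Without 1 clone 5 to 10 of the 33 were called, and 2 in the fit of 10 arrays.

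Of 33 measured lysosome and autophagy genes, 19 rose and none fell (limma, 0 lower at unadjusted p under 0.05), and 24 had the passage 43 arrays above the passage 42 arrays. The median log2 change was 0.31, with 0.35, 0.32 and 0.29 in the clones, 0.22 in the untransfected and 0.27 in the scrambled line. Ctsd, cathepsin D, an aspartic protease, read 1669, 1736 and 1716 units at passage 42 and 2671, 2583 and 2608 units at passage 43 (log2 0.62, SE 0.06, limma adjusted p 0.00665). Hexa, a subunit of beta-hexosaminidase, went from 2183, 2157 and 2129 units to 3256, 3189 and 3416 units (log2 0.61, SE 0.06, limma adjusted p 0.00716). Gaa, acid alpha-glucosidase, went from 2125, 2133 and 2041 units to 3064, 3246 and 3065 units, and Ctsh, cathepsin H, from 1668, 1709 and 1618 units to 2327, 2661 and 2430 units. In these 4 genes the clones were close together at each passage and the passages far apart. The remaining called members, from Gabarapl1 (0.54) and Ctsk (0.53) to Ulk1 (0.28), included the membrane proteins Lamp1 (0.41) and Lamp2 (0.32). Without 1 clone 12 to 14 were called higher, and 5 in the fit of 10 arrays.

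The counts of lipid and retinoid genes were near the shares over all genes. Of 32 genes of cholesterol and fatty acid synthesis, 2 rose (6.25%) and 3 fell (9.38%), against 6.26% and 6.32% of all genes, and 0 were called in the fit of 10 arrays (limma, 3 at unadjusted p under 0.05). Scd, the stearoyl-CoA desaturase, went from 1158, 1226 and 1431 units to 725, 864 and 910 units (log2 -0.61, SE 0.07, limma adjusted p 0.00791). Elovl6, a fatty acid elongase, went from 1025, 1088 and 1074 units to 775, 714 and 806 units (log2 -0.47), and Acaca, acetyl-CoA carboxylase, from 1001, 1129 and 989 units to 827, 922 and 803 units (log2 -0.29). The call of Acaca was lost without any 1 clone (limma adjusted p 0.0901 to 0.141). Lpin1, a phosphatidate phosphatase, rose by 0.59, and Insig1 by 0.29. The list median was -0.07 in the clones, -0.91 in the untransfected and -0.13 in the scrambled line.

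Of 34 retinoid, lipid droplet and quiescence genes, 2 rose (5.88%) and 3 fell (8.82%), and 0 were called in the fit of 10 arrays (limma, 5 at unadjusted p under 0.05). Fabp5, a fatty acid and retinoic acid binding protein, read 6819, 6755 and 7023 units at passage 42 and 3594, 3946 and 3796 units at passage 43 (log2 -0.86, SE 0.07, limma adjusted p 0.00491). Dhrs3, a retinaldehyde reductase, went from 136, 141 and 134 units to 223, 224 and 224 units (log2 0.71, SE 0.06, limma adjusted p 0.00537), and Dgat2, which makes triglyceride, from 226, 265 and 210 units to 356, 386 and 341 units (log2 0.63, SE 0.07). All 3 had the arrays apart. Lhx2 (-0.53), a transcription factor of quiescent stellate cells, and Nes (-0.41), an intermediate filament, fell, with calls lost without S4 for Lhx2 (0.0583) and without S4 or S5 for Nes (0.0524 and 0.0525).

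Several of the largest changes lay outside the lists. Tspan8, a tetraspanin, read 32.6, 20 and 26.9 units at passage 42 and 213, 49.6 and 185 units at passage 43. S4 was at the floor at passage 42, so its change of 1.31 is only a lower bound. The groups did not overlap, and the log2 change with that value at the floor was 2.27 (SE 0.28, limma adjusted p 0.00965). Both control lines were at the floor for Tspan8 at both passages. Prr15, a proline-rich protein, went from 66.1, 40.3 and 57.8 units to 345, 151 and 200 units (log2 2.02, SE 0.12, limma adjusted p 0.00391). Pln, phospholamban, the inhibitor of the sarcoplasmic calcium pump, went from 430, 154 and 269 units to 1572, 627 and 922 units. S4 was lowest at both passages, the 3 log2 changes were 1.87, 2.03 and 1.78, and the mean was 1.89 (SE 0.07, limma adjusted p 0.00203). In the untransfected and scrambled lines Prr15 changed by 0.18 and 0.55, and Pln by 1.68 and 0.37. Agtr1a, the angiotensin II receptor, went from 48.3, 83.7 and 35.0 units to 238, 132 and 134 units (log2 1.63, SE 0.29, limma adjusted p 0.0256), and its call was lost without S5 (0.0578).

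The other large rises were Fibin (1.78), Tmem178a (1.76), the purine oxidase Xdh (1.75), the smoothelin-like protein Smtnl2 (1.61) and Fam110c (1.61). Xdh went from 302, 206 and 341 units to 955, 815 and 1049 units, and Smtnl2 from 332, 128 and 364 units to 1038, 412 and 1027 units. The passages did not overlap in any of these genes in the clones. In the scrambled line Fibin changed by 1.71, Tmem178a by 1.77, Xdh by 1.42, Smtnl2 by -0.44 and Fam110c by 1.84. In the untransfected line the changes were 0.04 for Fibin, 0.83 for Tmem178a, 0.06 for Xdh and 0.36 for Smtnl2, with Fam110c at the floor.

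Gzmb (NCBI gene 171528), the serine protease granzyme B, had the largest called fall. It read 302, 445 and 420 units at passage 42 and 67.8, 93.7 and 89.1 units at passage 43. The log2 changes of the clones were -2.16, -2.25 and -2.24, and the level was 4.64-fold lower (log2 -2.21, SE 0.06, limma adjusted p 0.000956). A second Gzmb probe set fell from 93.9, 142 and 112 units to 20, 28.4 and 28.9 units, with S1 at the floor. Rassf4, a Ras association domain protein, read 176, 696 and 259 units and then 44.6, 245 and 64.2 units, overlapping because S4 was highest at both passages (log2 -1.83, SE 0.11, limma adjusted p 0.00402). Vch fell from 295, 73.4 and 134 units to 73.3, 39.7 and 41.0 units (log2 -1.54, SE 0.20, limma adjusted p 0.011). Its passage 42 values spread widely over the clones, and the lowest of them was just above the highest of passage 43. In the untransfected and scrambled lines Rassf4 changed by -1.08 and -1.93, and Vch by 0.26 and -0.42.

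Further falls of over 2-fold were Plac1 (-1.32), Eva1a (-1.26), Depp1 (-1.19), the neurofilament gene Nefm (-1.15) and Ptgs1 (-1.10). Nefm read 1603, 2074 and 1663 units and then 890, 759 and 744 units. Ptgs1, the constitutive cyclooxygenase, read 351, 314 and 397 units and then 121, 213 and 173 units (limma adjusted p 0.0194). None of these 5 genes had overlapping arrays.

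Several lists had small counts of calls. The shares that rose were 2.22% (oxidative phosphorylation), 5.56% (heat shock), 7.89% (hypoxia) and 8.11% (oxidative stress), against 6.26% of all genes. In the same order 0%, 0%, 10.5% and 8.11% fell, against 6.32% of all genes. Over the 10 arrays together, 2 of the oxidative stress genes were called, and 0 of the oxidative phosphorylation, heat shock and hypoxia lists (limma, 1, 3 and 7 at unadjusted p under 0.05). Of 45 genes of oxidative phosphorylation 1 rose (Cox8a, 0.29) and none fell (limma, 3 lower at unadjusted p under 0.05), and the call of Cox8a was lost without any 1 clone (0.107 to 0.133). Of 18 heat shock genes 1 rose, Hspa4, from 271, 349 and 341 units to 516, 447 and 547 units (limma adjusted p 0.023, and 0.055 without S5). Of 38 hypoxia and glycolysis genes 3 rose and 4 fell, among them Mxi1 (0.56), Eno2 (0.35) and Tpi1 (-0.31). Eno2 and Tpi1 lost their calls without any 1 clone (0.0583 to 0.092 and 0.0636 to 0.136), and with a clone left out at most 2 of the 38 fell. Of 37 oxidative stress genes 3 rose and 3 fell. Gsta4, a glutathione transferase of lipid peroxidation products, was the largest of them, from 411, 551 and 545 units to 817, 1169 and 1054 units (log2 1.01, SE 0.06, limma adjusted p 0.00432). Txnrd1, thioredoxin reductase, fell by 0.39 and lost its call without S1 (0.0674) or S5 (0.0877).

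The reported targets of miR-146a had a median log2 change of -0.0035, near the -0.0021 of all tested probe sets. Of 32 measured, 4 rose (12.5%) and 1 fell (3.1%), against 6.26% and 6.32% of all genes. Irak1 read 2001, 1771 and 1905 units at passage 42 and 1831, 1814 and 2057 units at passage 43, and Traf6 275, 266 and 241 units and then 297, 284 and 273 units. The arrays overlapped for both (limma adjusted p 0.971 and 0.26). Smad4, the shared effector of TGF-beta signalling, changed by -0.08 (limma adjusted p 0.468). The members that rose were Sort1 (0.52), Wnt5a (0.38), Fas (0.32) and Relb (0.31), and the one that fell was Il6. Wnt5a lost its call without S4 (0.0635) or S5 (0.064), and with 1 clone left out 1 or 2 of the 32 rose and 1 or 2 fell, while 0 were called in the fit of 10 arrays (limma, 7 at unadjusted p under 0.05).

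Marker lists of other cell types differed in how they moved. None of 12 hepatocyte or 13 leukocyte markers was called (limma; 0 and 3 at unadjusted p under 0.05), and the summed hepatocyte level was 575 to 607 units at passage 42 and 567 to 604 units at passage 43. The summed leukocyte level was 1245 to 1337 units at passage 42 and 1393 to 1450 units at passage 43, with Cd14 (548 to 716 units over the clone arrays) as its main part. Of 11 endothelial markers Tek fell by 0.30, with its call lost without any 1 clone (0.0674 to 0.142), and the summed level went from 904 to 924 units to 867 to 902 units. Of 5 biliary markers Krt8, a keratin, rose from 102, 211 and 130 units to 187, 375 and 234 units (log2 0.85, SE 0.06, limma adjusted p 0.00475), while Krt19 stayed at 20 to 23.9 units and Epcam at the floor. The summed biliary level was higher at passage 43 in 3 of 3 clones, from 197, 317 and 229 units to 279, 469 and 330 units. In each clone Krt8 alone rose by more units than this sum did. Krt7 changed by -0.26 and was not called, and the median log2 change of the biliary list was -0.03. Of 13 portal fibroblast, mesothelial and smooth muscle markers 3 rose (Msln, 0.75; Gpm6a, 0.48; Des, 0.33) and 2 fell (Cnn1 and Fbln2), which is 23.1% and 15.4% of the list. Their summed level was lower at passage 43 in 3 of 3 clones, from 8664, 10749 and 9008 units to 6050, 7987 and 6338 units, with no overlap. Fbln2 was its main part, at 5727, 7463 and 5778 units and then 2910, 4325 and 3069 units. In each clone Fbln2 alone fell by more units than the sum did. The list median log2 change was 0.03, with 7 of 13 above 0 and 6 below. The part of the shift in this sum in the other results was not tested. Msln, mesothelin, went from 77.0, 60.1 and 75.8 units to 115, 114 and 126 units. Of 17 stellate markers, Dcn, Des and Hand2 rose and Lhx2 and Tagln fell. Hand2, a stellate transcription factor, rose by 0.32 and lost its call without any 1 clone (0.0753 to 0.154). With all 10 arrays fitted, 2 of the portal fibroblast, mesothelial and smooth muscle markers were called and 0 of the other marker lists (limma, 5 at unadjusted p under 0.05 for stellate, 2 for biliary, 1 for endothelial and 0 for the others).

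**Figure D3:**
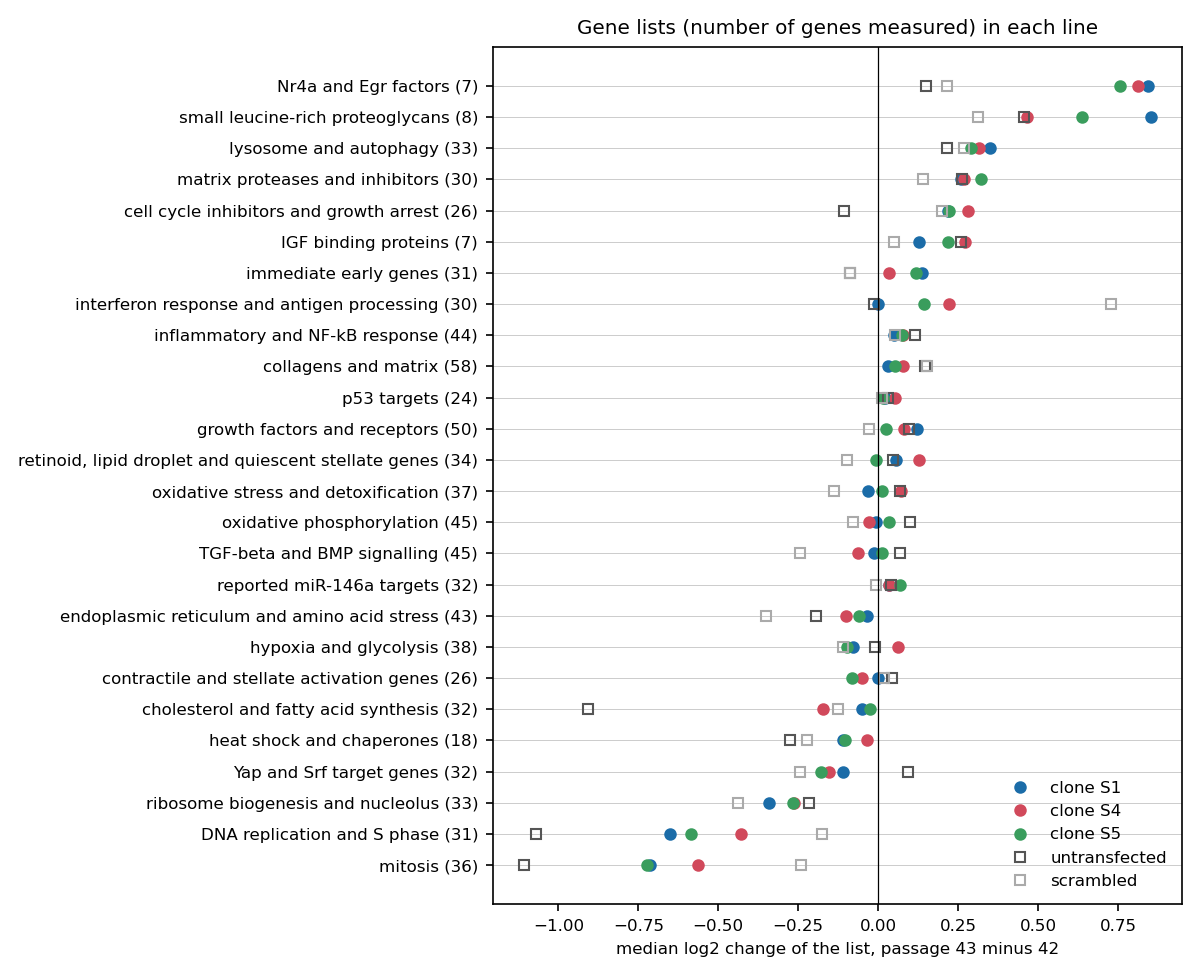
Median log2 change from passage 42 to 43 (horizontal axis) of each gene list in each line, with the number of genes measured in brackets, filled circles for the 3 clones and open squares for the 2 control lines. The clone medians for the Nr4a and Egr factors, a family grouped after its changes had been seen, were 0.84, 0.81 and 0.76 against 0.15 and 0.22 in the control lines, while for mitosis the clones lay between the controls (-1.11 and -0.24).

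The passage change could be set beside that of the control lines. In the fit of 10 arrays 1 probe set was called between passages within the 2 control lines (limma, 0.00363% of 27520, with 4943 at unadjusted p under 0.05), namely Anxa3. The difference between the clone and the control change was called for 5 probe sets (0.0182%, with 2298 at unadjusted p under 0.05), 3 higher (0.0109%) and 2 lower (0.00727%) in the clones. Of the 1360 probe sets that rose in the clones, 69.1% had a positive change in the untransfected and 79.5% in the scrambled line, where 49.1% and 46.5% of all probe sets did. Of the 1426 that fell, 77.8% and 83.3% had a negative change there, against 49.1% and 51.3% of all. The probe sets that rose had a median change of 0.44 over the clones and 0.24 over the controls, and those that fell -0.43 and -0.36.

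Gzmb was 4098 and 4330 units in the untransfected and 353 and 360 units in the scrambled line at passages 42 and 43, changes of 0.08 and 0.03, and the difference was -2.27 (SE 0.11, limma adjusted p 0.0114). The second Gzmb probe set changed by 0.43 and 0.21 in these lines and gave a difference of -2.49 (SE 0.16, limma adjusted p 0.0249). Nr4a1 read 226 and 264 units in the untransfected and 151 and 181 units in the scrambled line, and its difference was 1.60 (SE 0.12, limma adjusted p 0.0403). Vgf, a neuropeptide precursor, rose in the clones from 84.5, 50.6 and 114 units to 230, 143 and 285 units (log2 1.42, SE 0.07, limma adjusted p 0.00284), while the untransfected line read 57.4 and 45.1 units and the scrambled line 61.3 and 44.2 units. The Vgf difference was 1.83 (SE 0.12, limma adjusted p 0.027). Anxa3, a phospholipid-binding annexin, differed by the change of the controls, which read 492 and 131 units in the untransfected and 799 and 212 units in the scrambled line. Of its 4 tested probe sets only this 1 was among the 5 differences called. In the clones Anxa3 was 4490, 3550 and 3948 units and then 5208, 4094 and 4445 units and was not called (log2 0.20, limma adjusted p 0.103). With any 1 clone left out, or without the scrambled line, none of the 5 differences was called (limma, 1252 to 1416 and 6995 probe sets at unadjusted p under 0.05).

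**Figure D4:**
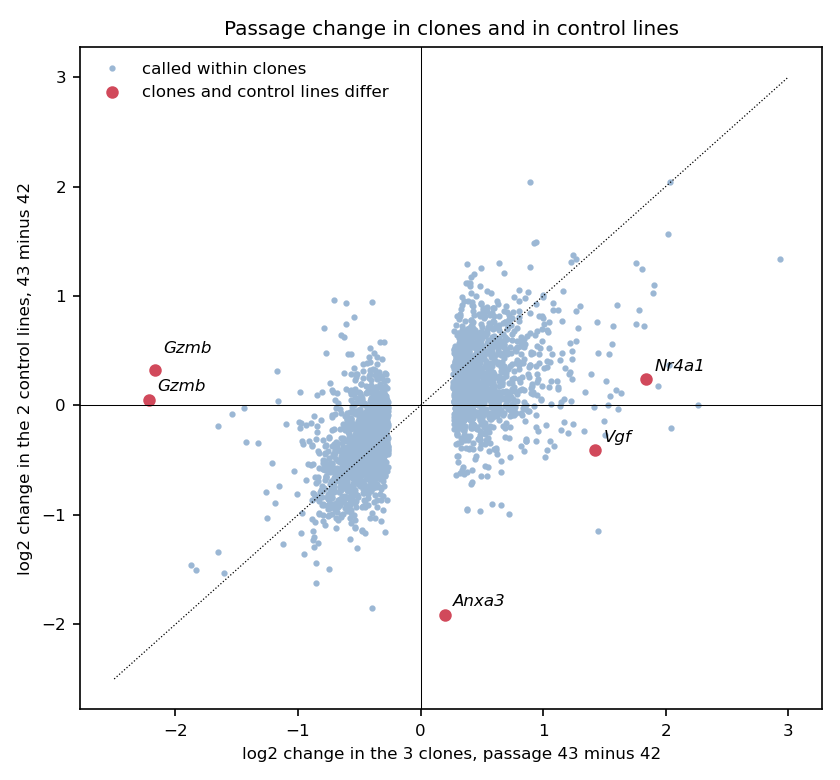
Log2 change from passage 42 to 43 in the 3 clones (horizontal axis) against the mean change in the 2 control lines (vertical axis), with 1 point per probe set called within the clones; the dotted line marks equal change. The 5 probe sets whose change differed between clones and control lines are in red, with Gzmb at -2.21 in the clones and 0.05 in the controls, and Anxa3, not called within the clones, at 0.20 and -1.91.

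The clones differed in the size of their own changes. At least 2-fold changes were measured in 112 probe sets higher and 35 lower for S1, then 127 higher and 41 lower for S4, and 92 higher and 56 lower for S5. Of these, 44 were at least 2-fold higher and 11 at least 2-fold lower in all 3. Of the 112 higher in S1, 106 had a positive change in both other clones, as did 122 of 127 in S4 and 88 of 92 in S5. Of the lower ones, 33 of 35 in S1, 33 of 41 in S4 and 53 of 56 in S5 were negative in both others. In several genes, picked here after their values were seen, S4 stood apart in level and not in direction. At both passages it was lowest for Dcn, Lum, Cxcl12 and Pln and highest for Postn, Tnc, Rassf4 and Il33. The spread of changes over all probe sets was similar in the clones (SD 0.257, 0.266 and 0.270) and wider in the untransfected (0.376) and scrambled (0.321) lines.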

How the data were processed

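Per the submitters' processing notes the authors used RMA, and the deposited table holds linear intensities for each array. No source names the RMA version or says why the lowest value is 20. The tests had been planned for log2 values, so the log2 of each deposited intensity was computed first. The table has 31099 probe sets. Left out were 57 array controls and the 3832 that sat at the floor on each of the 6 clone arrays, and 27210 were tested (27520 in the fit of 10 arrays). Of all values 14.6% were at the floor. Gene names are those of the platform annotation, which gives a single symbol for 19035 of the tested probe sets (13189 genes), several for 395 and no symbol for 7780. By gene identifier 20758 probe sets of the annotation matched GRCr8, and 0 symbols changed.

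Tests used limma 3.58.1 in R 4.3.3 (lmFit, eBayes, Benjamini-Hochberg over all probe sets tested), with clone as a block and 2 residual degrees of freedom. The replicate number is the clone, and the same clone's arrays deviated together at both passages (r of 0.463, 0.486 and 0.220 for S1, S4 and S5). The control lines and the difference were tested with line as a block on 10 arrays, with 3 residual degrees of freedom. The code was tested on simulated data. The members, the gene lists and the alternatives were chosen with earlier results of these data known, and the 3 families of proteoglycans, IGF binding proteins and Nr4a and Egr factors after the changes had been seen.

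Named were the 15 largest rises and 15 largest falls called in 3 of 3 clones (probe set with the smallest p), up to 4 genes of the smallest p per list (probe set with the highest mean over the clone arrays), up to 6 genes a direction whose difference between clones and control lines was called, and Irak1, Traf6, Smad4, Mki67, Ccnd1, Myc, Acta2, Col1a1, Ccl2 and Plagl1. Other genes named with a log2 change are the remaining called members of a list, or were chosen after their values were seen. Values are those of 1 probe set per gene unless stated, and other probe sets of a gene were not always called. Among the genes with 1 of 2 probe sets called were Ptgs1, Egr2, Pik3ip1, Cdkn1a, Vegfa, Mxi1, Dgat2, Elovl6 and Acaca. For Nr4a3 2 of 3 were called, and for Pdcd4 4 of 5. Alternatives varied the normalization, the filter on low values, an offset of 32 before the log, the variance model, the block, the arrays in the fit and the clones included. The number of arrays limits the precision.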

Additional observations from a re-analysis of the deposited data

Results flagged for a closer look

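For 5 probe sets the passage change differed between the clones and the control lines by limma's test of that difference. The differences, clones minus control lines on the log2 scale, were -2.27 and -2.49 for the 2 Gzmb probe sets, 1.83 for Vgf and 1.60 for Nr4a1. For 1 of the 4 tested Anxa3 probe sets the difference was 2.11. Each of the 3 clones changed in the direction of the difference. Gzmb was lower at passage 43 in 3 of 3 clones for both probe sets. The control changes were 0.08 and 0.03 for the first and 0.43 and 0.21 for the second, in the untransfected and scrambled line. Nr4a1 and Vgf were higher in 3 of 3 clones, and Vgf had a negative change in both control lines. Anxa3 was lower in 2 of 2 control lines and near level in the clones.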

How the results depend on the processing

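The 2786 probe sets called between passages within the clones became 225 without a filter on low values, 4637 with a trended and robust variance model, and 319 in the fit of 10 arrays. Without the replicate block, that is without pairing the arrays by clone, 1745 were called (763 higher and 982 lower). With 1 clone left out the count was 1427 to 1982. Quantile normalization (2726), median centring (2912), only probe sets above the floor on every array (3123), a mean log2 above 6 (4092) and the offset (3893) stayed within 1.5 times.

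Within the control lines the 1 call became 142 with only probe sets above the floor on every array, 272 with a mean log2 above 6, 3 without a filter and 0 without the replicate block (limma, 3115 at unadjusted p under 0.05). Without 1 clone it was 0, without the untransfected line 11 and without the scrambled line 1979. The 5 differences became 2 without a filter, 0 without the replicate block (1043 at unadjusted p under 0.05), 0 without any 1 clone, 3 without the untransfected line and 0 without the scrambled line. The fit with line as a block has 3 residual degrees of freedom, and fewer with a line left out. A lone control line is assumed to vary like the clones.

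Of 155 named probe sets none reversed. Calls were lost for 99 without a filter, 69 in the fit of 10 arrays, 36 without the replicate block and 13, 16 and 21 without S1, S4 and S5. The cause of these losses was not tested. Values at the floor of 20 units carry no order, so changes to or from it are understated.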
